A study of Mus musculus with 33 samples.

Results

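Transcripts of the arginine methyltransferase PRMT5, of its partners and of the Sm proteins it methylates were followed in mouse liver after activation of MYC and β-catenin. The set held 10 genes, chosen by symbol from the 21671 genes of the deposited table. It comprised 3 genes of the methylating complex (Prmt5, Wdr77 and Clns1a) and the 7 genes of the Sm ring (Snrpb, Snrpd1, Snrpd2, Snrpd3, Snrpe, Snrpf and Snrpg). All 10 were in the table and all passed the filter on low values in both parts of the study.

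The study profiled total RNA from 33 livers and liver nodules of C57BL/6 mice. In the short-term experiment, mice aged 6 to 8 weeks were given AAV8-TBG-CRE, in which the hepatocyte promoter TBG drives Cre recombinase, and livers were collected after 4 days. All 20 of these livers received the virus, wild-type animals included. They were wild type (5 livers), b-cat Ex3 (5 livers, called Ex3 here; Cre deletes an exon of β-catenin, and the shortened protein is stable), R26-lslMYC (5 livers, called MYC; Cre switches on a MYC transgene) or R26-lslMYC/b-cat Ex3 (5 livers, called MYC+Ex3). In the tumour experiment, nodules came from Alb-CreERT2/R26-lslMYC mice (3 MYC tumours) and Alb-CreERT2/R26-lslMYC/b-catEx3 mice (3 MYC+Ex3 tumours), in which the albumin promoter drives a Cre that 4-hydroxytamoxifen activates. Their controls were 7 livers of wild-type mice taken 4 days after 4-hydroxytamoxifen (4-OHT livers). The ages of the tumour-bearing mice and of these controls are not given in the sources used here, and the controls carry no Cre or MYC allele by their label. The samples were pieces of whole tissue, so a change in the number of cells of a type and a change in RNA per cell cannot be told apart.

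PRMT5 transfers methyl groups from S-adenosylmethionine to arginine and makes symmetric dimethylarginine. It works in a complex with WDR77 (also called MEP50), its obligate partner, and with pICln, the product of Clns1a, which brings Sm proteins to the enzyme and holds them before assembly. The Sm proteins B, D1 and D3 carry the arginine-glycine tails that are methylated, and the SMN complex then loads all 7 Sm proteins as a ring onto the small nuclear RNAs of the spliceosome. In models of MYC-driven lymphoma, genes of this pathway have been described as raised by MYC.

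MYC binds DNA with its partner MAX, preferentially at the E-box CACGTG, so the start regions of the 3 genes of the complex are shown. They are taken from RefSeq promoter windows (GRCm38.p6) that run from 250 bases before to 50 bases after a gene's start, written 5′ to 3′ on the gene's strand with the E-box in capitals. Windows matched 8 of the 10 genes. The motif, which reads the same on both strands, was searched in all 300 bases. It occurred in the windows of 2 of the 8, Clns1a and Wdr77. Of all 32851 windows 7.15% held it, as did 9.39% of the 15638 genes of the table that have a window. In Clns1a it began 114 bases before the start. In Wdr77 it lay just after the start, so only the motif and its flanks are printed, and no match was found in Prmt5.
Clns1a, chr7:97696407-97696656, plus strand: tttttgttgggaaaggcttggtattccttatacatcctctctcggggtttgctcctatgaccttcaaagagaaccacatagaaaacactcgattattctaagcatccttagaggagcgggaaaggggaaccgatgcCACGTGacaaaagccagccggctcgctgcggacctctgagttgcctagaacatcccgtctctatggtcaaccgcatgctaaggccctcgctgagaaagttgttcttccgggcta
Wdr77, chr3:105959497-105959522, plus strand: agaggtacacCACGTGtgcggtccct
Prmt5, chr14:54517471-54517720, minus strand: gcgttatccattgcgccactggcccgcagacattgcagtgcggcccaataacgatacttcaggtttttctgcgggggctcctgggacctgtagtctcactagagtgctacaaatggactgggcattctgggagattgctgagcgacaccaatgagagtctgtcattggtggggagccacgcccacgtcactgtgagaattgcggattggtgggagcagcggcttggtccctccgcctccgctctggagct
These are descriptions of letters in a window. The files hold no binding data, and no match in a window says nothing about sites elsewhere.

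Levels are given as RPKM, which divide the reads of a gene by its length and by a total per library that the authors chose, so levels of different genes are per length, within the limit that shared sequence sets for some of them (given at the end). Reads in genes numbered 3.75 M to 7.31 M per day 4 library and 6.65 M to 9.82 M per library of the tumour experiment. A library of the day 4 livers held 77 to 751 reads of Prmt5 and 18 to 116 of Snrpf, the least covered of the 10 genes. The library totals used by the authors count reads differently in the 2 experiments (99.95% to 99.96% of the total lay in genes for day 4 livers, 22.2% to 29.6% for the tumour experiment), so RPKM were compared only within an experiment. Axin2, a target of β-catenin, was at 10.6 to 24.9 RPKM in Ex3 and 2.73 to 4.30 RPKM in wild-type livers, and at 7.63 to 11.3 RPKM in MYC+Ex3 and 0.0946 to 0.660 RPKM in MYC tumours. Mouse Myc spanned 0.748 to 4.11 RPKM in wild-type and 3.12 to 4.81 RPKM in MYC livers. Whether reads of the transgene were counted in it is not given in the sources used here, so this gene does not check the MYC label. Of the day 4 livers, 10 carried transcripts of the epidermal keratins Krt5, Krt14 and Krt17 (summed 3.95 to 23.8 RPKM, against at most 0.398 in the others): 3 wild-type, 3 Ex3, 1 MYC and 3 MYC+Ex3 livers. The 6 livers whose title numbers share their leading digits, here called the shared-number livers (1 wild-type, 2 Ex3, 1 MYC and 2 MYC+Ex3), were among those without keratin transcripts; what those digits stand for is not given in the sources used here. Values within such livers are given below where a call ended or a direction turned. Keratin transcripts were at most 0.0621 RPKM in the tumour experiment.

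At day 4 every gene of the set was higher in MYC than in wild-type livers. A gene is called when limma's two-sided test on log2(RPKM + 1) gives a Benjamini-Hochberg adjusted p under 0.05 over all 13688 genes tested in the day 4 livers, and changes are on that scale, which understates those of low genes. In MYC against wild-type livers, 10 of 10 were called higher and 0 lower, where 16.9% of all genes tested were called higher and 5.36% lower. The 2 groups did not overlap for 7 of the 10, with all MYC livers above all wild-type livers, against 10.9% of all genes. The median change was 0.94 over the 10 genes and 0.07 over all genes tested. Prmt5 changed most and Snrpd2 least.

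Prmt5, the catalytic subunit, was at 9.99, 6.54, 11.0, 8.80 and 7.26 RPKM in the 5 wild-type livers and at 34.3, 33.6, 18.9, 30.8 and 29.5 RPKM in the 5 MYC livers. Every MYC library lay above every wild-type library, although replicate 3 stood well under the other MYC livers. The ratio of means was 3.37, and the log2 change was 1.64 ± 0.24 (SE; limma adjusted p = 4.92e-05). MYC+Ex3 livers held 38.5, 38.9, 18.7, 26.1 and 14.7 RPKM, again all above the wild type, but with a spread (SD 11.1) wider than that of any other group. The 2 highest of these were the livers without keratin transcripts, and the 3 with them were at 14.7 to 26.1 RPKM. Against the wild type the log2 change was 1.47 over all livers, 1.79 in livers without and 1.26 in livers with keratin transcripts, called in each case (limma adjusted p = 0.000117, 0.00119 and 0.00327). Of these MYC+Ex3 livers the 2 without keratin are also the 2 shared-number livers, so the keratins and the title number cannot be told apart within this group.

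Wdr77, which encodes the WD-repeat partner that binds substrate, was more even. Its RPKM were 15.6, 16.0, 15.2, 18.7 and 18.1 in wild-type livers and 41.3, 35.2, 31.8, 39.9 and 24.8 in MYC livers. The groups were well separated, and the log2 change was 0.99 ± 0.14 (SE; limma adjusted p = 3.00e-05). Clns1a, which encodes the chaperone pICln, was the most abundant of the 3 in every day 4 group. It was at 32.1, 28.1, 36.3, 29.0 and 32.5 RPKM in wild-type livers and at 61.7, 55.2, 48.5, 70.9 and 41.3 RPKM in MYC livers, a log2 change of 0.78 ± 0.13 (SE; limma adjusted p = 0.000147). No MYC liver fell into the wild-type range. Prmt5 was thus the gene of the complex with the lowest level in wild-type livers and the largest change, and its mean came close to that of Wdr77 in MYC livers (29.4 and 34.6 RPKM). The mean log2 ratio of Prmt5 to Wdr77 was -0.96 in wild-type, -0.39 in Ex3, -0.24 in MYC and -0.46 in MYC+Ex3 livers. The gap was thus also smaller in Ex3 livers, without MYC, and this ratio was not tested.

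**Figure D1:**
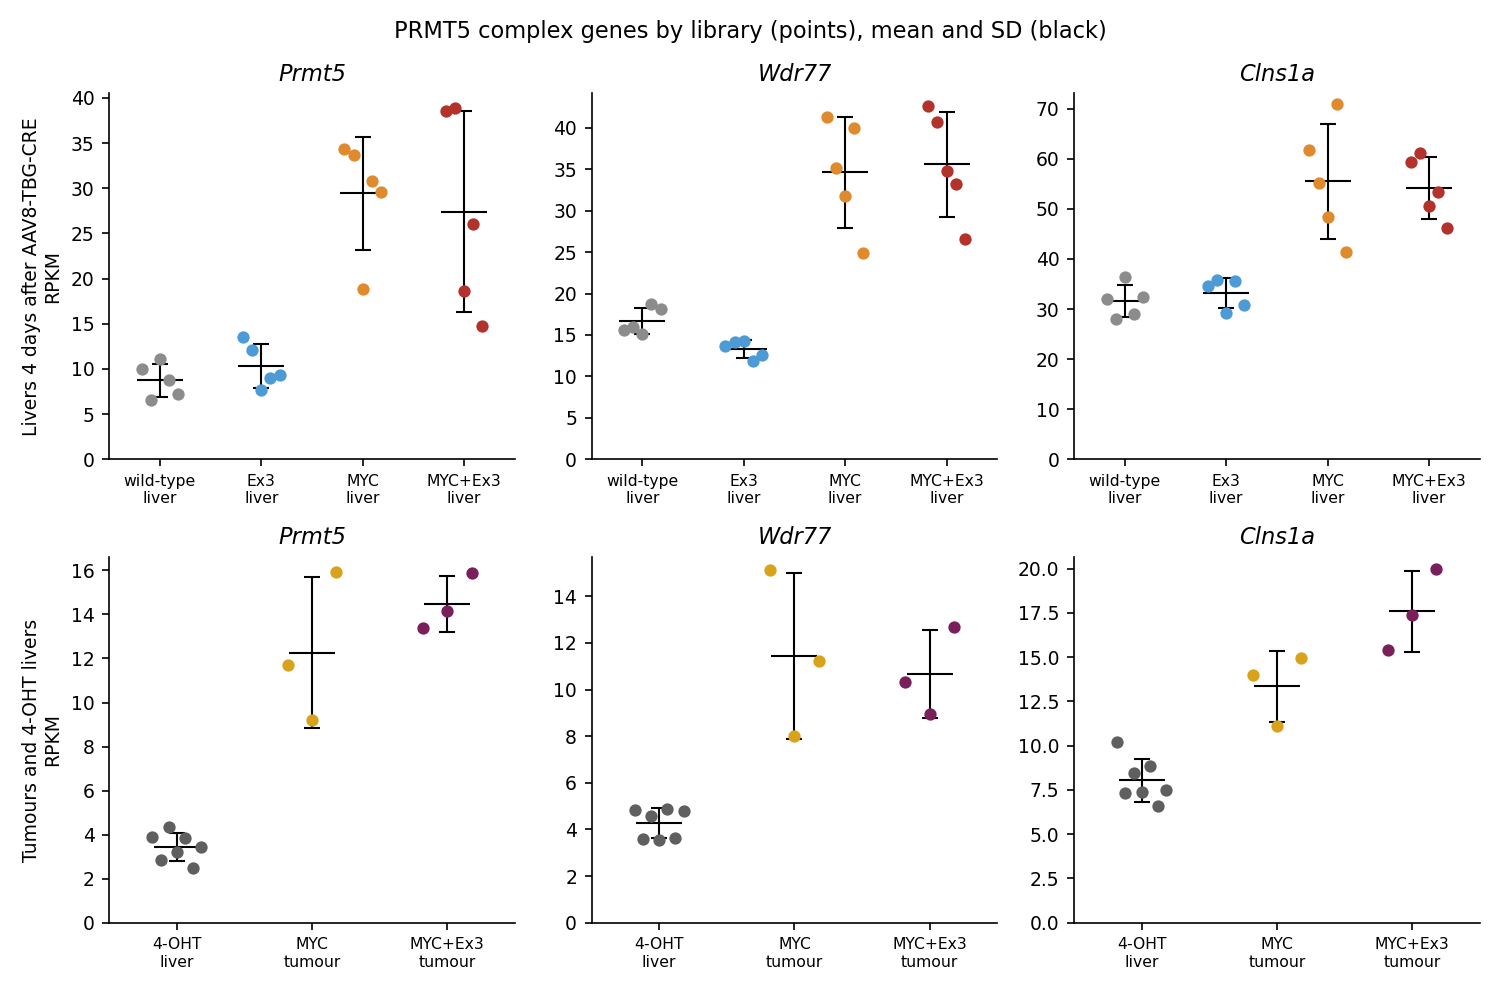
RPKM of Prmt5, Wdr77 and Clns1a in each library (points) with the mean and SD of each group (black), in the day 4 livers (top) and in the tumour experiment (bottom), on axes that start at 0. MYC and MYC+Ex3 livers lie above wild-type livers for all 3 genes, and Prmt5 spreads from 14.7 to 38.9 RPKM in MYC+Ex3 livers.

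Among the Sm proteins whose tails PRMT5 methylates, D1 and D3 rose more than B. Snrpd1, which encodes D1, was at 20.4, 17.2, 15.4, 18.2 and 20.7 RPKM in wild-type livers and at 52.1, 36.0, 40.8, 80.0 and 45.3 RPKM in MYC livers. The groups lay far apart, with replicate 4 the highest MYC liver, and the log2 change was 1.37 ± 0.16 (SE; limma adjusted p = 6.05e-06). Snrpd3, for D3, was at 20.0, 13.4, 14.2, 14.98 and 16.3 RPKM in wild-type and at 37.2, 25.1, 34.7, 44.8 and 42.8 RPKM in MYC livers, with no overlap and a log2 change of 1.16 ± 0.14 (SE; limma adjusted p = 1.18e-05). Snrpb, for the B proteins, started from a higher level, 57.5, 51.5, 73.4, 63.3 and 54.8 RPKM. It reached 96.6, 87.0, 79.2, 92.7 and 81.0 RPKM in MYC livers, a log2 change of 0.54 ± 0.09 (SE; limma adjusted p = 0.000242) with no overlap. The difference between the changes of these genes was not tested. Nor was the part of Snrpb's higher level in it, given the limit on high genes described below.

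The other ring genes, whose proteins are not known for such tails, split in the same way between large and small changes. Snrpf, for F, was at 7.08, 8.83, 6.29, 8.10 and 10.7 RPKM in wild-type livers and at 19.9, 16.8, 16.2, 29.8 and 12.1 RPKM in MYC livers, with a log2 change of 1.08 ± 0.20 (SE; limma adjusted p = 0.000576) and no overlap. Snrpg, for G, went from 24.1, 15.1, 25.2, 34.6 and 18.9 RPKM to 47.8, 36.7, 41.0, 69.0 and 29.6 RPKM, a log2 change of 0.89 ± 0.19 (SE; limma adjusted p = 0.00195). Its groups overlapped, because wild-type replicate 4 exceeded MYC replicate 5. That MYC liver held Xist (86.1 RPKM) together with Ddx3y of the Y chromosome (4.74 RPKM). The other day 4 livers with high Xist held at most 0.134 RPKM of Ddx3y, and the reason was not tested. Snrpe, for E, was at 41.8 to 66.0 RPKM in wild-type and 58.6 to 117 RPKM in MYC livers, and Snrpd2, for D2, at 56.6 to 86.4 and 75.9 to 137 RPKM. Both overlapped between the groups, with log2 changes of 0.58 and 0.45 and limma adjusted p-values of 0.0102 and 0.0242.

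The smaller calls depended on settings and on single libraries. MYC liver replicate 4, the only MYC liver with keratin transcripts, was the highest of its group for 7 of the 10 genes. Without it Snrpd2 changed by 0.34 (limma adjusted p = 0.0789) and 9 of the 10 genes were called higher (13.5% of all genes). Leaving out wild-type replicate 2 or 5 also ended the call of Snrpd2 (limma adjusted p = 0.0753 and 0.0596), as did rescaling each library by its median ratio (log2 change 0.35, limma adjusted p = 0.0987). Among the livers without keratin transcripts 7 of the 10 were called higher against the wild type (7.09% of all genes), and Snrpb (0.39), Snrpe (0.35) and Snrpd2 (0.17) were not (limma adjusted p = 0.0791, 0.181 and 0.456). For the shared-number livers, with 1 wild-type and 1 MYC liver, no calls are given for MYC against the wild type. Between those 2 livers the log2 change was 0.13 for Snrpd2 and 0.13 for Snrpe. With the shared-number livers left out 10 of 10 were called higher (12.5% of all genes). Rescaling changed the split of all called genes from 2313 higher and 734 lower to 1880 higher and 1302 lower, while 9 of the 10 genes were called higher.

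**Figure D2:**
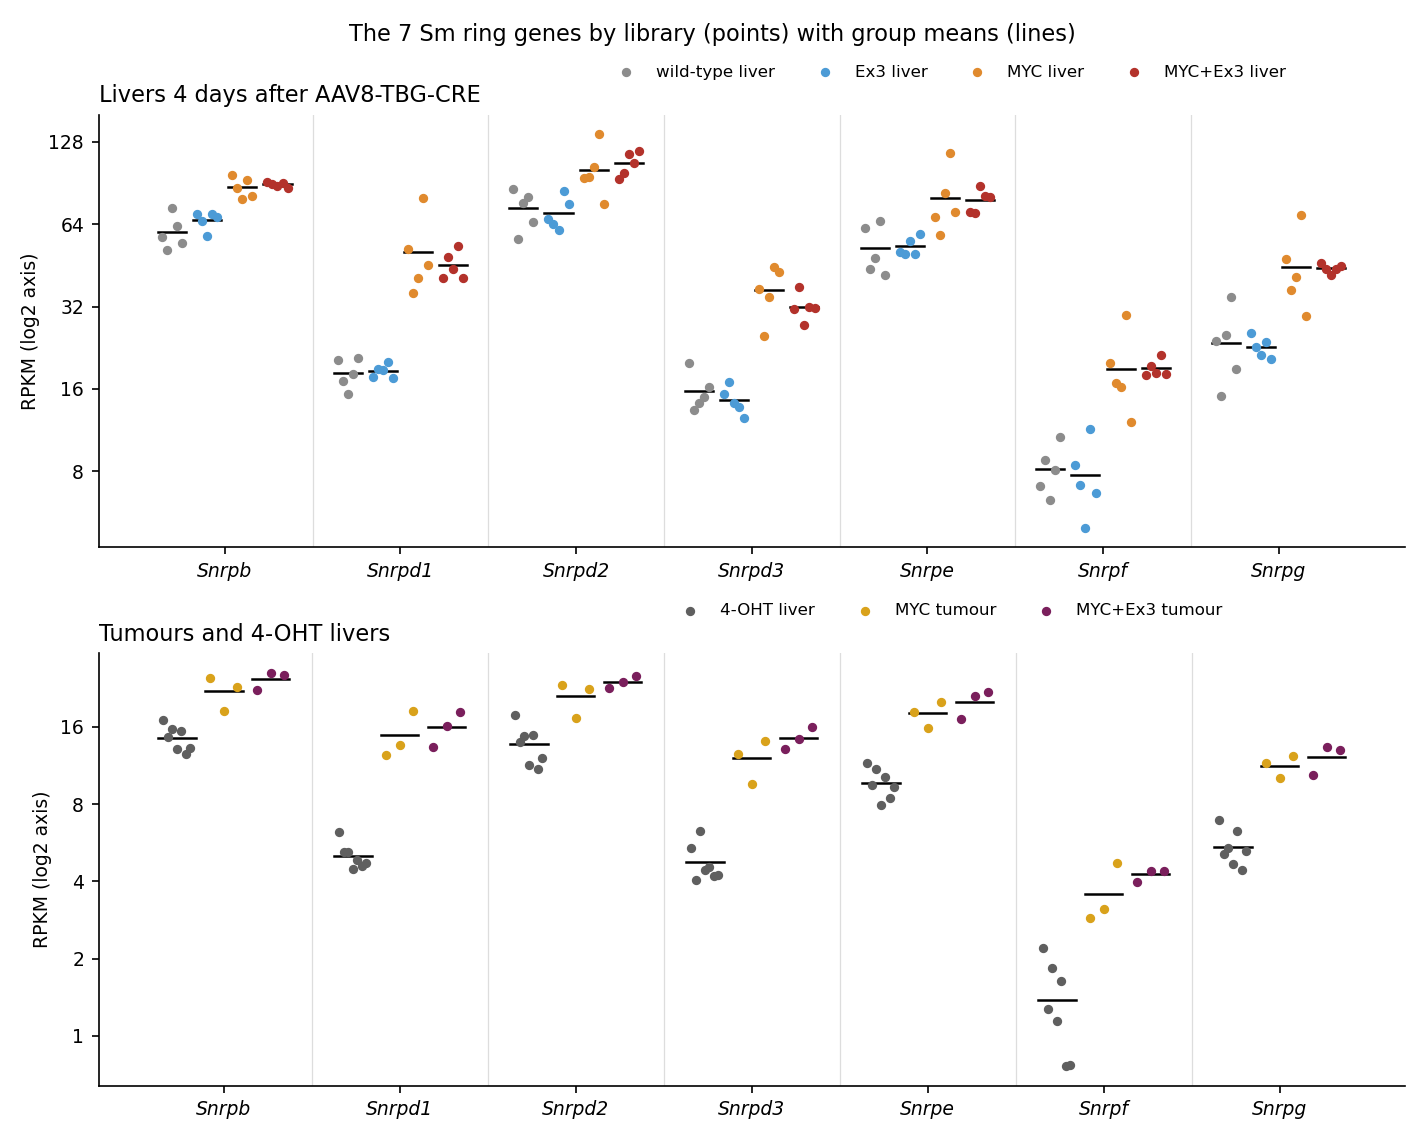
RPKM of the 7 Sm genes in each library (points) with group means (lines), on log2 axes, in the day 4 livers (top) and in the tumour experiment (bottom). Snrpb, Snrpd1, Snrpd3 and Snrpf stand apart between groups with and without MYC, while Snrpd2, Snrpe and Snrpg overlap between wild-type and MYC livers.

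Activated β-catenin alone gave no call in the set. In Ex3 against wild-type livers 0 of 10 genes were called, where 0.132% of all genes were called higher, and 1 of the 10 had an unadjusted p under 0.05. That gene was Wdr77, at 13.7, 14.2, 14.2, 11.8 and 12.6 RPKM in Ex3 livers. Every Ex3 liver lay below every wild-type liver, which 0.563% of all genes did, and the log2 difference was -0.30 (95% interval -0.59 to -0.02; limma adjusted p = 0.902), so it did not pass. For Prmt5, at 13.5, 12.1, 7.67, 9.01 and 9.32 RPKM in Ex3 livers, the groups overlapped and the interval ran from -0.28 to 0.71. The other 8 genes differed by -0.10 (Snrpd3) to 0.15 (Snrpb), and their intervals lay between -0.52 and 0.40. For each of the 10 genes the upper bound was below its change in MYC livers. Among livers without keratin transcripts 0 of 10 were called, with differences from -0.31 (Snrpd2) to 0.26 (Prmt5).

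Nor did Ex3 added to MYC give a call. In MYC+Ex3 against MYC livers 0 of 10 genes were called (0.19% of all genes were called higher), with log2 differences from -0.18 (Snrpd3) to 0.10 (Snrpd2) and a limma adjusted p of 1.00 for each, and 0 of the 10 had an unadjusted p under 0.05. The interval was -0.66 to 0.33 for Prmt5, -0.24 to 0.33 for Wdr77 and -0.43 to 0.22 for Snrpd1. The interaction, which asks whether the MYC effect differs with Ex3, was called for 0 of the 10, as for 0% of all genes by limma, among which 132 had an unadjusted p under 0.05 (0 of the 10). For Prmt5 it was -0.38 (95% interval -1.08 to 0.32) and for Wdr77 0.35 (-0.06 to 0.75). The direction of both differences for Prmt5 turned with the libraries used; 1 MYC liver held keratin transcripts against 3 in each other group. Among livers without keratin transcripts Prmt5 differed by 0.44 between MYC+Ex3 and MYC livers (limma adjusted p = 0.367) and its interaction was 0.17, while with a term for these transcripts the values were 0.03 and -0.18. In those livers all 10 genes differed upwards between MYC+Ex3 and MYC livers, from 0.01 (Snrpd3) to 0.44, with Wdr77 at 0.34, and 0 of 10 were called. With the shared-number livers left out the Prmt5 values were -0.49 and -0.55, and 0 of 10 were called in either. So neither direction can be read for Prmt5.

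With both alleles, the set was higher than in either group without MYC. In MYC+Ex3 against wild-type livers 10 of 10 genes were called higher (17.9% of all genes) and 0 lower (6.18% of all genes), and all 10 were without overlap, against 13.5% of all genes. The median change was 0.96 over the set and 0.05 over all genes. In MYC+Ex3 against Ex3 livers 10 of 10 were called higher (16.4% of all genes), all without overlap (15.2% of all genes), with changes from 0.43 (Snrpb) to 1.34 (Wdr77). After rescaling 10 of 10 were called in both, while the split of all called genes went from 2455 higher and 846 lower to 2049 and 1301 against the wild type, and from 2249 and 644 to 1940 and 956 against Ex3. These comparisons share libraries with those above, so their values stand side by side and are not independent. Levels of several ring genes were closely grouped in MYC+Ex3 livers: Snrpg was at 46.1, 43.9, 41.8, 44.0 and 45.2 RPKM, and Snrpb at 91.3, 89.9, 88.7, 91.0 and 86.9 RPKM. Among livers without keratin transcripts 8 of the 10 were called higher in each of these 2 comparisons (14.1% and 12.4% of all genes). Those lost were Snrpd2 (0.24) and Snrpe (0.37) against the wild type (limma adjusted p = 0.278 and 0.15) and Snrpb (0.41) and Snrpe (0.48) against Ex3 (limma adjusted p = 0.0756 and 0.0787). Among livers with them 10 of 10 were called higher in both (15.1% and 10.7% of all genes). Among shared-number livers, 8 of the 10 were called higher against the wild type (26.9% of all genes), without Snrpd2 (0.15, limma adjusted p = 0.181) and Snrpe (0.19, limma adjusted p = 0.0935), and 10 against Ex3 (26.8% of all genes). With those livers left out 10 of 10 were called against the wild type (9.41% of all genes) but 6 of 10 against Ex3 (5.61% of all genes). There Snrpb (0.45), Snrpd2 (0.63), Snrpe (0.59) and Snrpg (0.97) had limma adjusted p-values from 0.0693 to 0.139, in a fit of 14 livers.

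**Figure D3:**
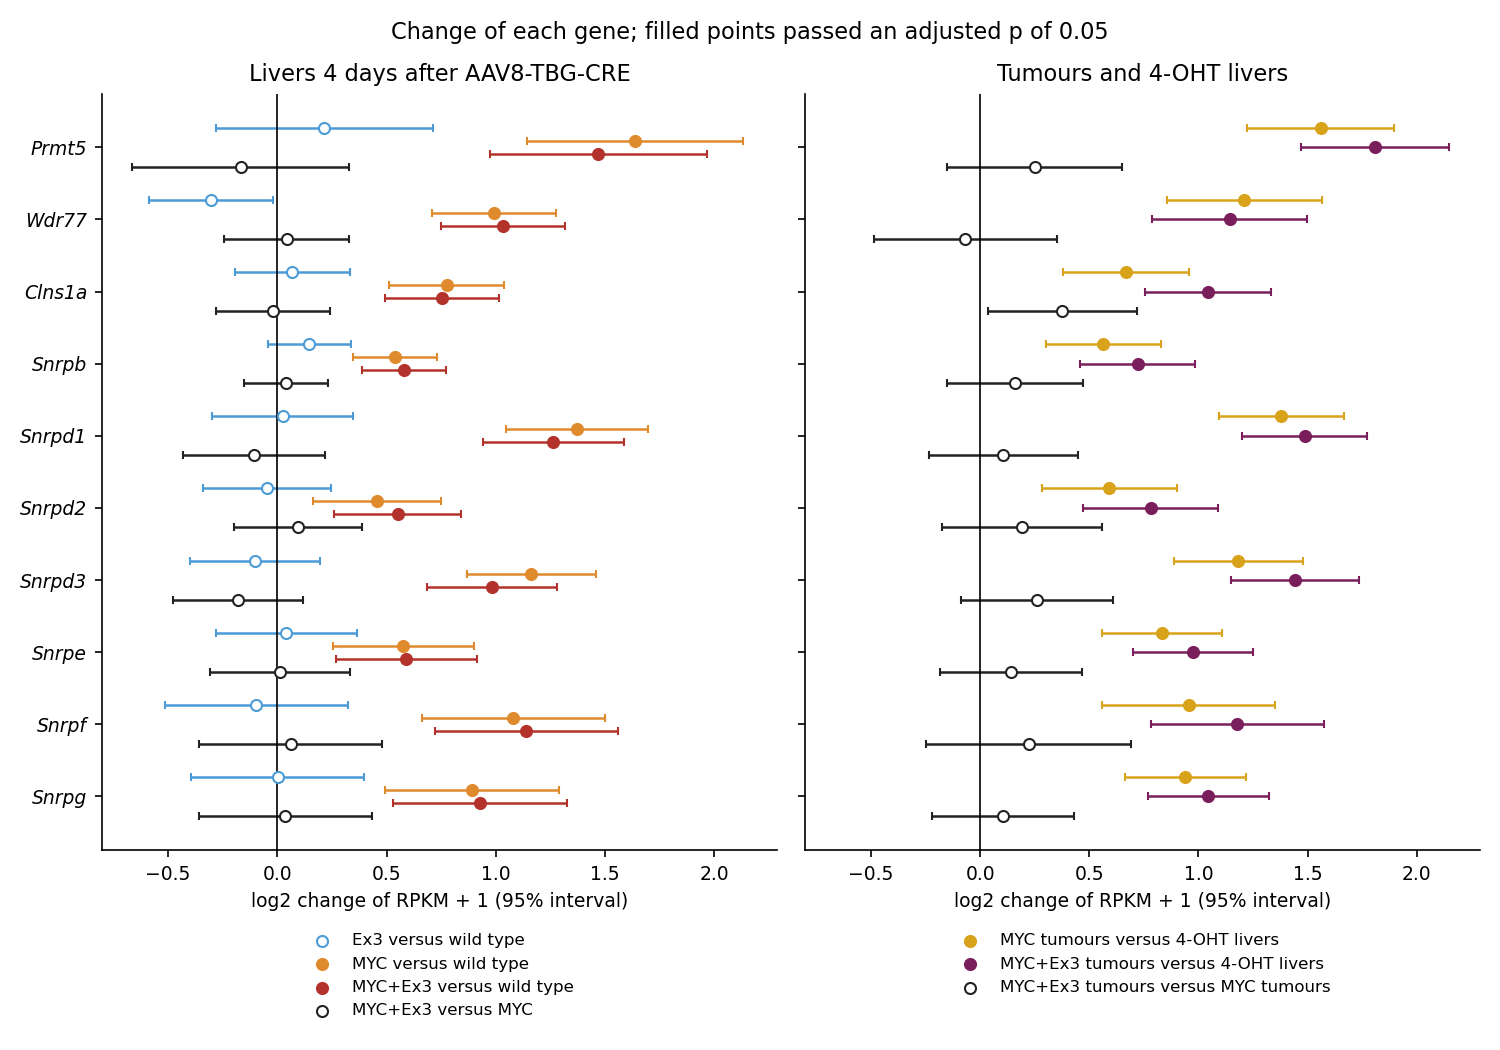
Change of each of the 10 genes on the log2(RPKM + 1) scale with its 95% interval from limma, for the day 4 comparisons (left) and the tumour comparisons (right); filled points passed an adjusted p of 0.05. All changes shown between a group with MYC and a group without it (MYC+Ex3 against Ex3 livers is not drawn) are filled, from 0.45 for Snrpd2 in MYC livers to 1.81 for Prmt5 in MYC+Ex3 tumours, and the comparisons of groups that differ by Ex3 alone have only open points.

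The tumours held more of every transcript of the set than the 4-OHT livers. In MYC tumours 10 of 10 genes were called higher among 11854 genes tested (36.2% of all genes) and 0 lower (13.7% of all genes). In MYC+Ex3 tumours 10 of 10 were called higher (42.3% of all genes) and 0 lower (18.4% of all genes). In RPKM all MYC tumours lay above all 4-OHT livers for 9 of the 10 (26.3% of all genes), with Snrpd2 the exception. All MYC+Ex3 tumours did so for 10 of 10 (38.2% of all genes). With so many genes called, the count of the set says little by itself, and the sizes say more. The median change was 0.95 over the set and 0.19 over all genes in MYC tumours, and 1.09 and 0.23 in MYC+Ex3 tumours. Rescaling by median ratio lowered the change of a gene by a median of 0.18 in each, and the median of all genes became 0.01 and 0.04. Relative to that scale the set's medians were 0.78 and 0.89, 10 of 10 were called in both, and the called genes overall were 3195 higher and 2788 lower in MYC tumours and 3996 higher and 3242 lower in MYC+Ex3 tumours, in place of 4286 and 1621, and 5011 and 2178.

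Prmt5 was lowest at 2.50, median 3.45 and highest 4.36 RPKM in the 7 4-OHT livers, against 11.7, 9.18 and 15.9 RPKM in MYC tumours and 13.4, 14.2 and 15.9 RPKM in MYC+Ex3 tumours. Each tumour held more than the highest control. The log2 change was 1.56 ± 0.16 (SE; limma adjusted p = 6.01e-06) in MYC and 1.81 ± 0.16 (SE; limma adjusted p = 6.37e-07) in MYC+Ex3 tumours, the largest of the set in both. Wdr77 was at 3.53 to 4.90 RPKM (median 4.60) in 4-OHT livers and at 15.1, 8.01 and 11.2 RPKM in MYC tumours. MYC+Ex3 tumours held 10.3, 8.95 and 12.7 RPKM of it, within the range of MYC tumours, and the log2 changes were 1.21 and 1.14 (limma adjusted p = 6.08e-05 and 4.58e-05). The mean of Prmt5 was below that of Wdr77 in 4-OHT livers (3.45 and 4.27 RPKM) and above it in both kinds of tumour (12.3 and 11.4, then 14.5 and 10.6 RPKM). This crossing was not tested.

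Clns1a was the member with the clearest step between the 2 kinds of tumour. It was at 6.59 to 10.2 RPKM (median 7.48) in 4-OHT livers, at 14.003, 11.1 and 14.9 RPKM in MYC tumours and at 15.4, 17.4 and 20.0 RPKM in MYC+Ex3 tumours. The 3 groups did not overlap. The change from 4-OHT livers was 0.67 in MYC and 1.04 in MYC+Ex3 tumours, with limma adjusted p-values of 0.00112 and 1.72e-05. Between the tumours the log2 difference was 0.38 (95% interval 0.03 to 0.72; unadjusted p = 0.0334, limma adjusted p = 0.234), so it did not pass. It was the 1 gene of the 10 without overlap there, which 8.59% of all genes were in the same direction. Over the set, 0 of 10 genes were called between MYC+Ex3 and MYC tumours (2.02% of all genes were called higher). The other 9 differed by -0.07 (Wdr77) to 0.26 (Snrpd3), with the interval for Prmt5 running from -0.15 to 0.65.

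On the log2(RPKM + 1) scale Snrpd1 and Snrpd3 had the largest changes of the ring. Snrpd1 was at 4.45 to 6.22 RPKM (median 4.83) in 4-OHT livers, 12.5, 13.6 and 18.5 RPKM in MYC tumours and 13.4, 16.1 and 18.3 RPKM in MYC+Ex3 tumours, with changes of 1.38 and 1.49 (limma adjusted p = 4.05e-06 and 8.57e-07). Snrpd3 was at 4.07 to 6.30 RPKM (median 4.45) in 4-OHT livers, 12.5, 9.59 and 14.03 RPKM in MYC and 13.2, 14.4 and 16.0 RPKM in MYC+Ex3 tumours, with changes of 1.18 and 1.44 (limma adjusted p = 1.86e-05 and 1.32e-06). For both genes the lowest tumour held more than the highest control. Snrpb had the smallest changes, 0.56 and 0.72 (limma adjusted p = 0.00185 and 0.000174), from 12.5 to 17.1 RPKM in 4-OHT livers to 18.4 to 24.7 and 22.2 to 26.0 RPKM in the tumours. Snrpd2 was close to it, with 0.59 and 0.78 (limma adjusted p = 0.00394 and 0.000344). Its lowest MYC tumour, at 17.4 RPKM, lay under the highest 4-OHT liver, at 17.8 RPKM. These libraries held 329 Snrpd2 reads of 9.56 M in genes and 272 of 8.31 M, so relative to reads in genes the tumour was the higher.

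The remaining ring genes lay between these on that scale. Snrpe changed by 0.83 and 0.98, Snrpg by 0.94 and 1.04 and Snrpf by 0.96 and 1.18 in MYC and MYC+Ex3 tumours (limma adjusted p from 1.17e-05 to 0.000824), and none of the 3 overlapped with the 4-OHT livers. Snrpf was the scarcest, at 0.763 to 2.20 RPKM (median 1.27) in 4-OHT livers and 2.88 to 4.70 RPKM in the tumours, where the pseudocount of 1 compresses its change. Its ratios of means, 2.59 and 3.09, do not have that limit and are slightly above those of Snrpd3, 2.54 and 3.06. Single tumour libraries tended to be high or low for the whole set. MYC tumour replicate 2 was the lowest of its group for 8 of the 10 genes and MYC+Ex3 tumour replicate 1 for 9, while replicate 3 was the highest for 7 in each group. The 2 low libraries also had the smallest share of the authors' total in genes within their groups, 24.6% and 25.6%. Replicate 3 had the largest share in MYC+Ex3 tumours, 29.6%, but not in MYC tumours (26.6%, against 27.9% in replicate 1). RPKM are divided by that total, so differences between tumours and between library totals cannot be told apart here. All 10 genes stayed called against the 4-OHT livers when any 1 of the 13 libraries was left out.

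Because RPKM are per length, the ring's transcripts can be set beside each other, although the ring holds its 7 proteins in equal number. A limit is that the highest gene of any kind tended to be lower where the library total was larger. It was at 220 RPKM at a total of 7.32 M and at 396 RPKM at 3.75 M in 2 MYC+Ex3 livers. In 2 MYC tumours it was at 42.9 RPKM at 38.8 M and at 67.5 RPKM at 23.9 M. Whether high genes such as Snrpd2, Snrpb and Snrpe are compressed was not tested. In wild-type livers the mean was 73.1 RPKM for Snrpd2, 60.1 for Snrpb, 52.4 for Snrpe, 23.6 for Snrpg, 18.4 for Snrpd1, 15.8 for Snrpd3 and 8.19 for Snrpf. With the complex genes placed among them (Clns1a 31.6, Wdr77 16.7 and Prmt5 8.73 RPKM), neighbours in this order overlapped over the 5 livers except at 2 steps, between Snrpe and Clns1a and between Snrpd3 and Prmt5. In the 4-OHT livers Snrpb (14.5 RPKM) and Snrpd2 (13.7 RPKM) led, and the 1 step without overlap was that down to Snrpf (1.38 RPKM). Snrpd2, Snrpb and Snrpe were the 3 highest and Snrpf the lowest in all 7 groups.

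The ring's transcripts were on average more even in groups with MYC. The highest Sm gene of a library exceeded the lowest 9.38 ± 2.98-fold in wild-type livers (SD, n = 5) and 5.64 ± 0.92-fold in MYC livers (SD, n = 5), with 9.69 ± 2.03 in Ex3 and 5.63 ± 0.73 in MYC+Ex3 livers (SD, n = 5 each). It did so 11.8 ± 3.66-fold in 4-OHT livers (SD, n = 7), 6.44 ± 1.91-fold in MYC tumours (SD, n = 3) and 5.79 ± 0.11-fold in MYC+Ex3 tumours (SD, n = 3). The summed RPKM of the 7 genes went from 251 ± 33.4 (SD, n = 5) in wild-type to 420 ± 87.8 (SD, n = 5) in MYC livers. It was 415 ± 14.996 (SD, n = 5) in MYC+Ex3 livers. In the tumour experiment the sum was 54.5 ± 7.71 (SD, n = 7) in 4-OHT livers, 103 ± 13.7 (SD, n = 3) in MYC tumours and 116 ± 11.1 (SD, n = 3) in MYC+Ex3 tumours. The share of Snrpd1 in that sum was 7.41% ± 1.31 in wild-type and 11.9% ± 1.70 in MYC livers (SD, n = 5 each), and 9.27% ± 0.57 in 4-OHT livers (SD, n = 7) against 14.4% ± 2.32 in MYC tumours (SD, n = 3). Snrpb went the other way, from 26.7% ± 0.81 (SD, n = 7) in 4-OHT livers to 21.4% ± 1.76 in MYC and 21.3% ± 0.74 in MYC+Ex3 tumours (SD, n = 3 each). The ranges of that ratio overlapped, with a minimum of 6.14 in wild-type and a maximum of 6.68 in MYC livers, and a minimum of 8.09 in 4-OHT livers and a maximum of 8.57 in MYC tumours. Its lowest gene is Snrpf, which has the fewest reads and the most shared sequence of the set. The limit on high genes given above bears on this ratio and on the shares as well. These are descriptions of the values tested above and carry no test of their own.

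**Figure D4:**
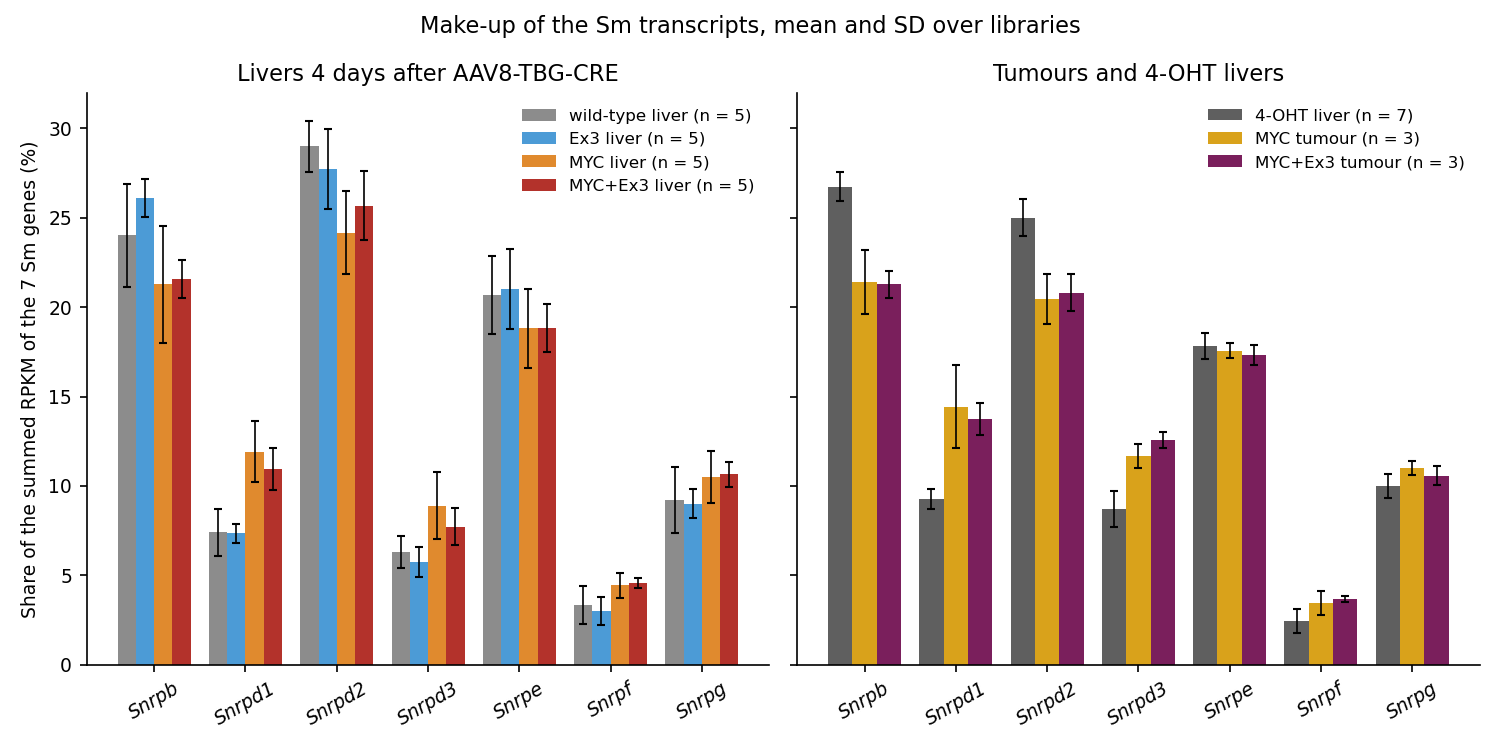
Share of each Sm gene in the summed RPKM of the 7 Sm genes, as the mean and SD over the libraries of each group, with day 4 livers on the left and the tumour experiment on the right. Snrpd1, Snrpd3 and Snrpf take larger shares in groups with MYC (Snrpd1 11.9% against 7.41% in MYC and wild-type livers), and Snrpb and Snrpd2 smaller ones.

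The pathway around the set was read from lists of known components, chosen with earlier results of these data in view. Each is given as calls in MYC against wild-type livers and in MYC+Ex3 tumours against 4-OHT livers, where the share of all genes called higher was that printed above. Other arginine methyltransferases were called higher for 5 of 7 tested and 5 of 6, with median changes of 1.06 and 1.42. Prmt1, the main enzyme for asymmetric dimethylarginine, rose by 1.92 and 2.31 (limma adjusted p = 3.13e-06 and 7.99e-08), each larger than the change of Prmt5, a difference that was not tested. Prmt3, which methylates a ribosomal protein, rose by 1.55 and 1.65 (limma adjusted p = 1.50e-06 and 6.89e-08). The other PRMT5 adaptors were weaker. Riok1, which competes with pICln for PRMT5, changed by 0.26 and 0.89 (limma adjusted p = 0.16 and 7.34e-06), and Coprs, which directs PRMT5 to histones, by 0.56 and 0.13 (limma adjusted p = 0.0582 and 0.438).

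Genes that act after methylation were called in part at day 4 and nearly throughout in tumours. Of the SMN complex, which places the ring on RNA, 6 of 9 and 8 of 9 genes were called higher. Gemin6 went from 8.44 to 14.8 RPKM in wild-type livers to 29.2 to 116 RPKM in MYC livers, a change of 2.03 (limma adjusted p = 1.12e-05), and Gemin5, the subunit that recognises small nuclear RNA, rose by 1.78 in MYC+Ex3 tumours (limma adjusted p = 3.82e-07). Gemin4 rose by 1.12 at day 4 (limma adjusted p = 3.15e-05). Export, capping and import factors were called for 6 of 9 and 9 of 9, among them Ncbp1, which binds the RNA cap (0.94 and 1.26; limma adjusted p = 9.50e-05 and 4.36e-06). The importin Kpnb1 rose by 0.83 in MYC livers (limma adjusted p = 1.23e-05), and the exportin Xpo1 rose by 1.09 in MYC+Ex3 tumours (limma adjusted p = 3.42e-06).

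Proteins that join the assembled particles followed. Of the LSm proteins, the Sm-like family, 8 of 13 and 11 of 13 were called higher, with Lsm2 at 1.39 and Lsm4 at 0.84 in MYC livers (limma adjusted p = 2.37e-05 and 0.00032) and Lsm8 at 1.47 and Lsm3 at 1.54 in MYC+Ex3 tumours (limma adjusted p = 1.48e-06 and 3.42e-06). Of the proteins specific to U1 and U2 particles 11 of 14 and 14 of 14 were called, led by the U2 protein Snrpa1 (1.55 and 1.44; limma adjusted p = 1.36e-05 and 9.93e-07) and Sf3b3 (0.94 and 1.19; limma adjusted p = 2.78e-05 and 5.31e-07). Of the U5 and U4/U6 proteins 9 of 17 and 16 of 17 were called. Usp39 and Ppih rose by 0.66 and 1.11 in MYC livers (limma adjusted p = 0.000452 and 0.000479), and Eftud2 and Prpf31 by 1.23 and 1.35 in MYC+Ex3 tumours (limma adjusted p = 4.36e-07 and 3.03e-06). In these lists 0 genes were called lower in either comparison. After rescaling 1 of the U5 and U4/U6 genes was called lower in MYC livers, and the calls among U1 and U2 proteins there went from 11 to 8 and in MYC+Ex3 tumours from 14 to 12.

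The supply of the methyl donor was mixed. Of 7 genes of S-adenosylmethionine metabolism 2 were called higher in MYC livers and 4 in MYC+Ex3 tumours, and 0 lower, with medians of 0.09 and 0.52, the first of which was -0.01 after rescaling. Mat2a, the synthetase of growing cells, rose by 0.76 and 1.07 (limma adjusted p = 0.000695 and 1.18e-05). Mtap, which clears methylthioadenosine, an inhibitor of PRMT5, rose by 1.41 and 1.30 (limma adjusted p = 3.35e-05 and 5.25e-06). Snrpn, the paralog of Snrpb known from brain, was listed at 0 in all 33 libraries and was not tested.

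**Figure D5:**
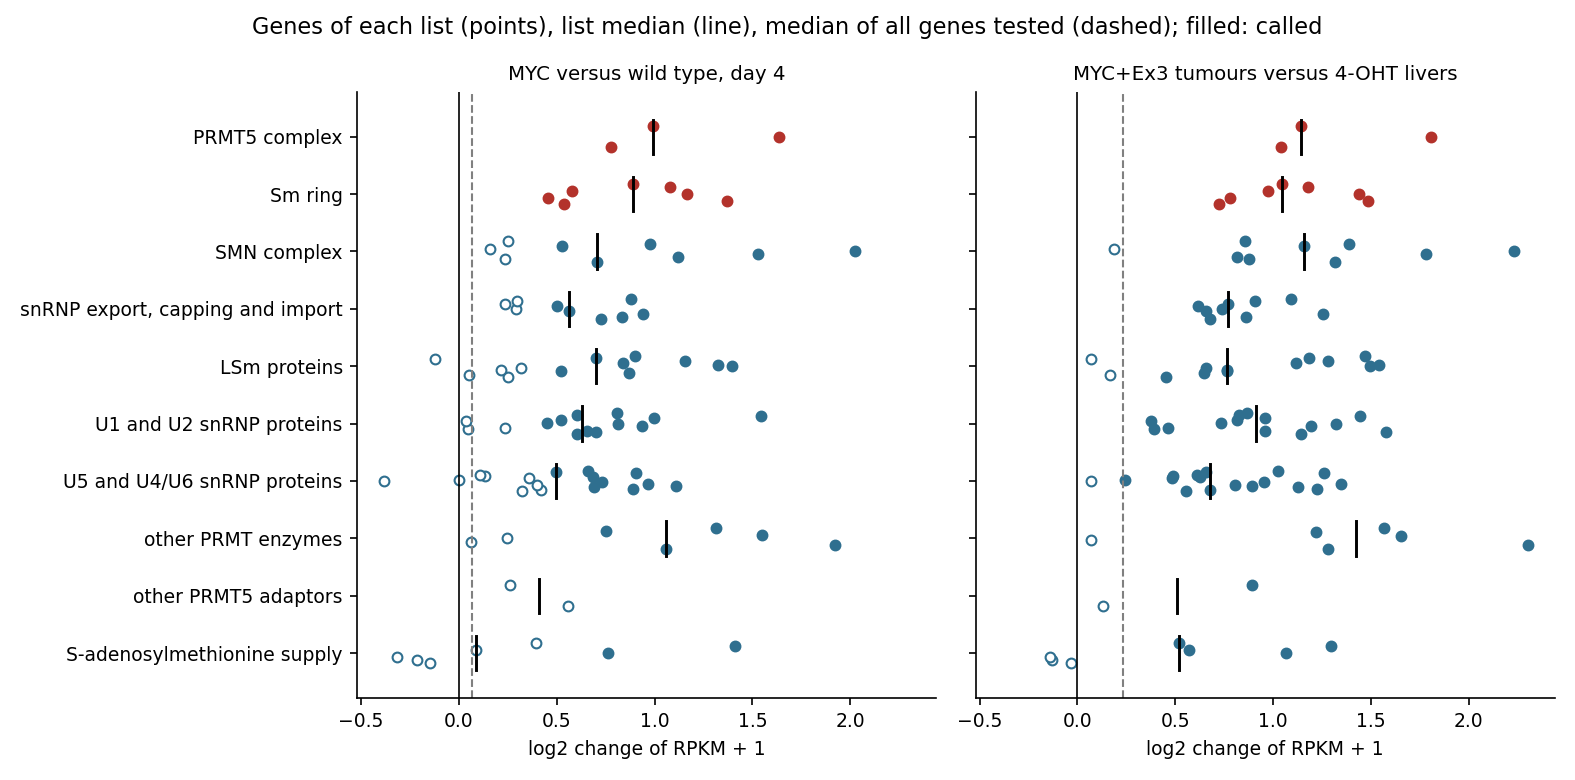
Change on the log2(RPKM + 1) scale of each tested gene (points; filled where called) of the set (red) and of the lists around it (blue), in MYC against wild-type livers (left) and MYC+Ex3 tumours against 4-OHT livers (right); short lines are list medians and the dashed line is the median of all genes tested (0.07 and 0.23). The methylosome, ring and other PRMT medians lie right of most of the other lists in the left panel, and all 10 points of the set are filled in both.

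The genes whose pattern was most like that of Prmt5 were found by the root mean square difference between centred log2(RPKM + 1) profiles. Over the 20 day 4 livers and 9652 genes with a mean of at least 5 RPKM, the nearest were Cirh1a (0.20), Grwd1 (0.21), Kat2a (0.22), Pwp2 (0.22) and Gart (0.22). Cirh1a, Grwd1 and Pwp2 are known from ribosome biogenesis, Kat2a encodes a histone acetyltransferase and Gart an enzyme of purine synthesis. Wdr77 was the nearest of the set, at rank 247 (0.39). Over the 13 libraries of the tumour experiment and 5473 genes, the nearest were Cks1b (0.13), Pold2 (0.13), Zmynd19 (0.14), Gemin5 (0.14) and Ppan (0.14), with Snrpd1 at rank 45 and Snrpd3 at rank 47 (0.21 each). These profiles share their libraries and depth, and the likeness carries no test. No other ranked gene of the set was among the 5 nearest, and Snrpf, under the mean of 5 RPKM, was not ranked in the tumour experiment.

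Markers of other states and cells moved beside the set. All 8 proliferation markers were called higher in MYC and MYC+Ex3 livers against the wild type and in both kinds of tumour against 4-OHT livers. In Ex3 livers 0 of 8 were called, although the median change against the wild type was 1.06 (3.42 in MYC livers) for these markers. Their summed level was 62.3 to 78.7 RPKM in wild-type, 67.4 to 178 in Ex3, 269 to 561 in MYC and 319 to 512 in MYC+Ex3 livers, and 29.9 to 51.6 in 4-OHT livers, 88.9 to 146 in MYC and 143 to 172 in MYC+Ex3 tumours. None was at 0 in a whole group. Their part in the changes of the set was not tested. Hepatocyte markers were present throughout (1074 to 1865 RPKM summed over 7 genes at day 4, 209 to 334 RPKM in the tumour experiment). Of these 7, 0 were called in MYC or MYC+Ex3 livers against the wild type or in MYC tumours, and 3 were called lower in MYC+Ex3 tumours. After rescaling 3 were lower in MYC and 4 in MYC+Ex3 tumours. At day 4 the summed hepatocyte level followed read depth. In each group it was lowest in the library with the most reads in genes and highest in that with the fewest. In MYC+Ex3 livers these were 1074 RPKM at 7.31 M reads and 1796 RPKM at 3.75 M reads. The highest gene of any kind was at 220 and 396 RPKM in those 2 libraries. Hepatocyte content can therefore not be read from these sums and calls, and the reason was not tested. At day 4, 2 of 7 endothelial markers were called lower in MYC and 1 in MYC+Ex3 livers (4 in each after rescaling), with summed levels of 163 to 275 RPKM in wild-type, 112 to 215 in MYC and 111 to 212 in MYC+Ex3 livers. Of 7 stellate and fibroblast markers 1 was called higher and 1 lower in MYC livers, and 1 higher and 2 lower in MYC+Ex3 livers. Of 8 macrophage markers 1 was called higher in MYC livers. In both kinds of tumour 7 of 8 macrophage markers and 5 of 7 endothelial markers were called lower, while 3 of 7 stellate and fibroblast markers were higher and 3 lower in MYC tumours and 1 was higher and 4 lower in MYC+Ex3 tumours. In MYC+Ex3 tumours 3 of the 4 lymphocyte markers tested were called lower, against 0 in MYC tumours, and 1 of the 2 cholangiocyte markers tested, against 0. Summed macrophage markers went from 133 to 189 RPKM in 4-OHT livers to 59.9 to 135 in MYC and 71.0 to 92.6 in MYC+Ex3 tumours, and the part of these markers in the set's changes was not tested either.

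The authors' deposited table also holds their own comparisons. At an adjusted p under 0.05 the authors' deposited table calls 8 of the 10 genes higher in MYC against wild-type livers, as 12.5% of all genes with an adjusted p there. Snrpd2 (log2 fold change 0.36, adjusted p = 0.176) and Snrpe (0.47, adjusted p = 0.117) are the other 2 in the authors' deposited table. The authors' deposited table calls 10 of 10 higher in MYC+Ex3 against wild-type livers (16.3% of all genes), in MYC tumours (24.4%) and in MYC+Ex3 tumours (30.7%) against 4-OHT livers. The authors' deposited table calls 0 of 10 between Ex3 and wild-type livers (0.656% of all genes higher), between MYC+Ex3 and MYC livers (0.247%) and between the 2 kinds of tumour (1.56%). For Prmt5 the authors' deposited table gives log2 fold changes of 1.58 in MYC livers, 1.46 in MYC+Ex3 livers, 1.59 in MYC tumours and 1.85 in MYC+Ex3 tumours.

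Some of these genes share sequence or overlap others, which leaves their counts uncertain. In the GRCm38 annotation Snrpf overlaps Ccdc38 on the opposite strand, and 89.5% of the 50-base words of its longest transcript also occur in transcripts of other genes. The share was 33.9% for Wdr77, which overlaps Atp5f1 on the opposite strand and Gm42890 on the same strand, and 20.8% for Snrpe, 18.6% for Snrpg, 13.8% for Snrpd1, 11.7% for Snrpd2 and 10.2% for Clns1a. It was 5.46% for Snrpd3, 0.09% for Snrpb and 0% for Prmt5. Libraries were strand-specific per the labels' protocols, but whether the counting used the strand is not given in the sources used here.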

How the data were processed

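Liver RNA was treated with DNase and made into strand-specific total RNA libraries, per the labels' protocols. Per the submitters' processing notes, TopHat2 2.0.8, SAMtools, featureCounts 1.4.5-p1 and DESeq2 were used with build mm9. The authors deposited 1 table with RPKM for each library, and the log2 fold change and adjusted p-value of their own comparisons; 0 value columns were set aside. RPKM are not counts, so the main test was limma 3.58.1 (R 4.3.3) with a trend on log2(RPKM + 1), for genes at an RPKM of at least 1 in at least 3 libraries, with the 20 day 4 livers in 1 fit and the 13 other libraries in another. Reads were recovered from the RPKM steps (100% of values whole within 0.001 reads) only to give depth. The fits were also run on simulated data with independent noise. Those data hold no keratin or title-number structure, so they do not check the calls made here.

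The members and lists were chosen with earlier results of these data known. All 10 members are named; of each other list, the 2 genes with the smallest p in each of the 2 comparisons shown, among genes at a mean RPKM of at least 1 (both genes of a list of 2), and the 5 genes most like Prmt5 in each experiment, among genes at a mean RPKM of at least 5. Alternatives were a pseudocount of 0.1, no filter or one at an RPKM of 5, median-ratio rescaling, a sex covariate, quality weights, fits of only the groups compared, a keratin term, libraries with or without keratin transcripts, 4-OHT livers of 1 title prefix, and leaving out each library; 3 fits on the shared-number livers, whose title numbers share their leading digits (a term, only those livers, and those left out) were chosen after seeing the data. Replicates were numbered by accession order, which pairs no samples. The labels give separate samples but name no animals, so p-values measure the spread between these samples.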

Additional observations from a re-analysis of the deposited data

How the results depend on the processing

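Leaving out single libraries aside, the alternatives gave 558 values for genes called in the main analysis, of which 540 kept their direction and call, 18 lost the call and 0 changed direction. The losses concern Snrpb, Snrpd2, Snrpe and Snrpg at day 4. With only the 2 groups compared in the fit, Snrpd2 and Snrpe lost the call in MYC against wild-type livers (limma adjusted p = 0.076 and 0.0599); that fit has fewer samples. The others are given in the report beside their comparisons: 1 from rescaling, 8 from fits with only or without the shared-number livers (chosen after seeing the data), and 7 from fits of livers without keratin transcripts, which leave 2 wild-type livers, 2 Ex3 livers, 4 MYC livers and 2 MYC+Ex3 livers. Leaving out each library in turn gave 9 to 10 called genes in MYC against wild-type livers. It gave 10 in the other 4 comparisons of a group with MYC and a group without it, and 0 in the others. The 3 calls lost were those of Snrpd2. Tumours and 4-OHT livers differ by the Cre allele and the tumour state as well as by MYC. For fits of only the shared-number livers, with 1 wild-type and 1 MYC liver, the changes alone are given for MYC against wild-type livers. The calls given there for MYC+Ex3 against wild-type livers rest on that 1 wild-type liver, so its spread is not measured. Without the shared-number livers the called genes in MYC+Ex3 against Ex3 livers went from 10 to 6, in a fit with fewer samples. A term for that number kept 10 called genes in each day 4 comparison of a group with MYC and a group without it. At an RPKM minimum of 5 Snrpf was not tested in tumours, and 9 of 9 were called. The number of all genes called moved more over these settings, leaving out a library aside. At day 4 it was 3047 (1249 to 4012) in MYC and 3301 (1425 to 6416) in MYC+Ex3 against wild-type livers, 2893 (780 to 6707) in MYC+Ex3 against Ex3, 18 (1 to 320) in Ex3 against wild-type and 26 (0 to 78) in MYC+Ex3 against MYC livers. It was 5907 (3636 to 6650) in MYC and 7189 (4278 to 8581) in MYC+Ex3 tumours against 4-OHT livers, and 489 (70 to 582) between the tumours. A fit of livers with keratin transcripts alone was not run for comparisons with MYC livers, which hold 1 such library. No paired analysis was possible because the replicate numbers follow accession order and the title numbers are not said to mark a shared animal or pair. Precision is limited for Snrpf, with 18 to 116 reads per day 4 liver.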
